A study of Mus musculus with 12 samples.

Results

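The 6 genes of Schwann cells and their myelin sheath examined here, Mbp, Pmp22, Sox10, S100b, Mag and Prx, were measured in RNA from the mouse soleus, a slow postural muscle of the lower leg. They were taken by symbol, and 6 of 6 were found among the 28997 genes of the tables. None of the 6 changed in any of the 4 comparisons between groups at an adjusted p under 0.05, and the libraries of the groups compared overlapped in 24 of 24 pairs of gene and comparison. Reads per library were sought for only 107 genes, so no share of overlap over all genes can be set beside this count. It describes the members only. What the data add is the level of each gene in each library, how closely the genes moved together, and how large a change these 12 libraries leave possible.

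The study sequenced polyadenylated RNA from 12 mice, 3 in each of 4 groups: Cdh5Cre-NOX1CKO mice fed a high fat diet, Cdh5Cre-NOX1CKO mice fed chow, Cdh5cre-WT mice fed a high fat diet and Cdh5cre-WT mice fed chow, each diet given for 8 weeks. Both genotypes carry the label Cdh5cre, a Cre recombinase driven by the promoter of an endothelial cadherin, and NOX1CKO denotes conditional loss of the NADPH oxidase gene Nox1. The tables name the groups by the codes G4, G3, G2 and G1 only. Which code stands for which genotype and diet is nowhere labelled, so groups are called by code throughout, and a difference between codes cannot be read as one of feeding or of Nox1. Every chow animal has a lower animal number than every high fat animal, so diet and animal number order cannot be told apart. The labels do not give the age or sex of the mice.

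Schwann cells are the glia of peripheral nerve. In a muscle they wrap the motor and sensory axons of the intramuscular nerve twigs, and their terminal, non-myelinating form covers the neuromuscular junction. SOX10 is the transcription factor that sets and keeps Schwann cell identity and drives myelin genes, PMP22 and myelin basic protein are structural components of compact myelin, MAG sits at the inner, axon-facing membrane, periaxin (Prx) links the outer Schwann cell membrane to the basal lamina, and S100B is a calcium-binding protein widely used as a Schwann cell marker. Whole muscle was sequenced, so reads of these genes cannot be assigned to a cell type. Fewer Schwann cells and less of an RNA in each Schwann cell cannot be told apart either.

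The label of the set was checked against markers. Of 19 other myelin and myelinating Schwann cell genes, 15 had a total of at least 100 normalised reads over the 12 libraries. Of 13 Schwann lineage genes, 9 did. Among these, the neuregulin receptor gene Erbb3 averaged 14.8 normalised reads per 1000000 and Drp2, the dystrophin-related partner of periaxin, 7.45. The myelin enzyme gene Cnp averaged 5.68 and the Schwann cadherin gene Cdh19 1.04. Other genes of these lists had few reads, such as Gjb1, with a total of 43.1, and Gfap, with 4.15. Mog, a marker of oligodendrocytes, the myelin cells of the brain, had a total of 9.13 normalised reads over the 12 libraries together. It was the only 1 of 4 central myelin genes on the list that was in the tables used. Gfap, a Schwann lineage gene, had a lower total than Mog, so the low Mog total alone cannot show that central myelin was lacking. For scale, the muscle actin gene Acta1 averaged 22156 per 1000000. Melanocytes also express Sox10, and 4 of the 5 melanocyte genes on the list were in the tables used. Dct had 2.02 normalised reads per 1000000, while over the 12 libraries together Pmel had a total of 17, Tyrp1 6.98 and Mlana 2.82. S100b exons overlap the span of Dip2a on the opposite strand, which had a total of 2452 normalised reads. Prx exons overlap the span of an antisense gene, Gm15541, with 88.4. Whether they meet exons of these genes was not examined. The library kit keeps strand, but the sources used here do not give the strand setting of the counting, so reads of these pairs may not be separable and the S100b values are uncertain for that reason.

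Promoter windows of 4 members were given, from 250 bases before to 50 bases after the annotated start (RefSeq, GRCm38.p6). They are shown because these genes are set side by side below, with letters that known regulators of Schwann cell genes recognise in capitals. Mag had 3 windows and Pmp22 4, and only the window nearest the annotated gene start is shown for each. Matches in their other windows are not described. Both strands were searched for 4 motifs, and no match overlaps another. For SOX factors, ACAAAG occurs in 18.7% of the 32851 promoter windows of this length, and the variant ACAATG in 12.6%. The TEAD motif CATTCC occurs in 14.7% and the EGR motif GCGTGGG in 5.0%. The Mag window (chr7:30914814-30915113, minus strand) holds 1 SOX match, on the reverse strand (printed as CTTTGT). The Prx window (chr7:27499074-27499373, plus strand) holds a TEAD match and, on the reverse strand (printed as CCCACGC), an EGR match. The Pmp22 window (chr11:63128732-63129031, plus strand) holds a TEAD match, and the S100b window (chr10:76253586-76253885, plus strand) none of the 4. A match describes letters only and is no evidence of binding.
Mag: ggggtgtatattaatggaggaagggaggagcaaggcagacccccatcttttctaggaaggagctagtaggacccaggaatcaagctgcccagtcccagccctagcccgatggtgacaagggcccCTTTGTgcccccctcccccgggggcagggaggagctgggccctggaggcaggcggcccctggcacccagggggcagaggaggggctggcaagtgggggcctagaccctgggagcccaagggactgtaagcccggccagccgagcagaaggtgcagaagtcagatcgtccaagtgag
Prx: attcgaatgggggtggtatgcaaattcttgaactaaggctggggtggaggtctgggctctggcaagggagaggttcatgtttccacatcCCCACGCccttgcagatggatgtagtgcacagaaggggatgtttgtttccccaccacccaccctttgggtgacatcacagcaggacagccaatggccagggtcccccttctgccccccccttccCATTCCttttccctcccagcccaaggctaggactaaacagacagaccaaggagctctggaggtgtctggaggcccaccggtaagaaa
Pmp22: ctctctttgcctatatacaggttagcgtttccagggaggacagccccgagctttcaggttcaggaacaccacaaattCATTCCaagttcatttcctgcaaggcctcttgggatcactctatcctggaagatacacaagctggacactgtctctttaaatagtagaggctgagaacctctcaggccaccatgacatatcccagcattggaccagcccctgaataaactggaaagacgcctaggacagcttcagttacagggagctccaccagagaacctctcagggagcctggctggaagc
S100b: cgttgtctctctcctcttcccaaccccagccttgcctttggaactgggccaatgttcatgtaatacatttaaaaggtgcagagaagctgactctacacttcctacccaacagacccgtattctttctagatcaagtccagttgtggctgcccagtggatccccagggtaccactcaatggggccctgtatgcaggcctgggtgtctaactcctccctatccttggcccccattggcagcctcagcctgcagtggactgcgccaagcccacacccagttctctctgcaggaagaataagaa

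The deposited tables give a total per gene, fold changes and p-values, with no value per library. Whole reads in each library were recovered from them for all 6 members, because only 1 set of 12 whole numbers gives the deposited total, fold changes and p-values of each gene. A negative binomial model refitted to these reads returned the deposited log2 fold changes within 6.3e-15. A close match was a condition for keeping the reads, so it could not fail. For the 48 recovered genes listed in the G2 against G1 table, the refit met its log2 fold changes within 9.3e-15 and its p-values within a relative 1.8e-13. That table was not used in the recovery. Its values follow from the other 3 tables, however, so this match is no separate check of the reads. Libraries are numbered within a group by falling size factor, and no number is tied to an animal. Size factors ran from 0.787 to 1.25 around a mean of 24905255 normalised reads per library. Nox1, the gene targeted in the study, had 5 reads in the 3 G4 libraries, 5 in G3, 10 in G2 and 6 in G1, too few to check any label.

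Per kilobase of the longest annotated transcript, the mean level over 12 libraries fell in the order Pmp22, Mbp, Prx, Sox10, S100b and Mag. Pmp22 had 429 ± 38.4 normalised reads per kilobase (SD, n = 12), Mbp 114 ± 14.7 and Prx 37.8 ± 7.21. Sox10 had 14.3 ± 4.94 and S100b 12.6 ± 3.77, a pair that did not differ beyond its spread. Mag had 4.75 ± 1.38 normalised reads per kilobase. Mbp has 16 annotated transcripts of 354 to 4797 bases, and with the median transcript length of each gene in place of the longest the order stayed the same, with Pmp22 at 1067 and Mbp at 303 per kilobase.

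**Figure D1:**
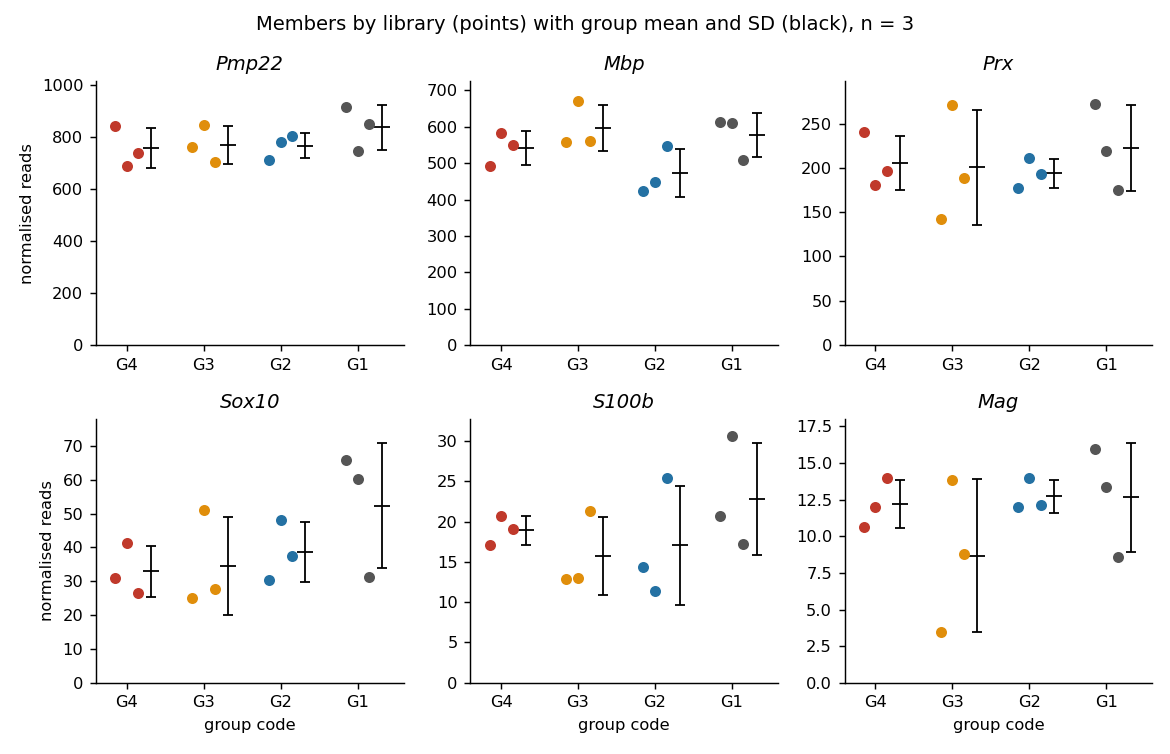
Normalised reads (y axis, from 0) of the 6 genes in each of the 12 libraries, by group code (x axis). Coloured points are libraries, and black bars are the group mean and SD (n = 3). The groups overlap in each of the 4 comparisons for each of the 6 genes, with no share of overlap over all genes known. G1 has the highest mean for Pmp22, Sox10, S100b and Prx.

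The structural myelin genes had the most reads and the narrowest spread. Pmp22 lies on chromosome 11 (63128982 to 63159547, plus strand, GRCm38). It had 841, 689 and 739 normalised reads in the G4 libraries, 759, 845 and 702 in G3, 713, 780 and 805 in G2, and 915, 745 and 850 in G1. The highest library was in G1 and the lowest in G4, a span of 1.33-fold, and every pair of groups overlapped. Group means were 757 ± 77.7 in G4, 769 ± 72 in G3, 766 ± 47.8 in G2 and 836 ± 85.6 in G1 (SD, n = 3 each). Pmp22 differed, in the authors' deposited table, by −0.02 log2 in G4 against G2 and by −0.02 in G4 against G3, and the corresponding 95% intervals ran from −0.25 to 0.21 and from −0.26 to 0.21. Set against G1, the deposited values were −0.12 for G3 (interval −0.35 to 0.11) and −0.13 for G2 (interval −0.36 to 0.10). Intervals were computed from the deposited p-values. Pmp22 was the most tightly bounded of the 6 genes: over the 4 comparisons its intervals reached no lower than 0.781-fold and no higher than 1.16-fold.

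Mbp lies on chromosome 18 (82475146 to 82585637, plus strand, GRCm38), and a ribosomal protein pseudogene, Rpl21-ps8, lies in its introns on the opposite strand. It had 492, 583 and 550 normalised reads in the G4 libraries, 557, 669 and 561 in G3, 423, 447 and 546 in G2, and 612, 610 and 508 in G1. G2 holds the lowest 2 of the 12 libraries, and the highest is in G3, but the third G2 library at 546 lies within the range of every other group except G3. Means were 542 ± 46.4 in G4, 596 ± 63.6 in G3, 472 ± 65.5 in G2 and 577 ± 59.5 in G1 (SD, n = 3 each). Mbp gave the lowest p-value of the set. In the authors' deposited table it was at −0.29 log2 in G2 against G1, with p = 0.030 and an adjusted p of 1, and the interval ran from −0.56 to −0.03. An unadjusted p under 0.05 was met by 1 of the 6 members, against 2.35% of 15494 genes whose total reached 100. It was −0.41 without the third G2 library. Without 1 library at a time the value in G2 against G1 stayed negative, from −0.41 to −0.22, and p ran from 0.0068 to 0.149. G4 against G2 gave 0.20 in the deposited table (interval −0.07 to 0.47), G4 against G3 −0.14 (−0.40 to 0.13) and G3 against G1 0.05 (−0.22 to 0.31).

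Prx, on chromosome 7 (27499324 to 27520214, plus strand), had 240, 181 and 197 normalised reads in the G4 libraries, 143, 271 and 188 in G3, 178, 211 and 193 in G2, and 272, 219 and 175 in G1. G3 alone held both the lowest of the 12 libraries and the second highest, and its range covered all values of G4 and G2. Means were 206 ± 30.6 in G4, 201 ± 64.8 in G3, 194 ± 16.6 in G2 and 222 ± 48.7 in G1 (SD, n = 3 each). The authors' deposited table has 0.09 log2 for G4 against G2, 0.04 for G4 against G3, −0.15 for G3 against G1 and −0.20 for G2 against G1, with standard errors of 0.23 in all 4. The interval of G2 against G1 ran from −0.65 to 0.26, so a fall below 0.636-fold and a rise above 1.19-fold lie outside it. The sign of G4 against G3 held in 3 of the 6 fits that leave out 1 library.

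Mag, the myelin-associated glycoprotein gene, lies on chromosome 7 as well (30899176 to 30914873, minus strand), and was the scarcest, with 141 reads in the 12 libraries together. It had 10.7, 12 and 14 normalised reads in the G4 libraries, 3.44, 13.8 and 8.79 in G3, 12, 14 and 12.2 in G2, and 16, 13.4 and 8.59 in G1. The lowest G3 library rests on 4 reads. Means were 12.2 ± 1.67 in G4, 8.69 ± 5.20 in G3, 12.7 ± 1.11 in G2 and 12.6 ± 3.74 in G1 (SD, n = 3 each). Mag stood in the authors' deposited table at −0.07 log2 in G4 against G2, with no adjusted p given, at 0.49 in G4 against G3 and at −0.55 in G3 against G1. Without 1 library at a time Mag ran from 0.08 to 1.06 in G4 against G3, the higher value without the second G3 library, and from −1.13 (the same library left out) to −0.14 in G3 against G1. The authors' deposited table for G2 against G1 lists only values of 0 or below and does not list Mag, and the value rebuilt from the other 3 tables was 0.00 (interval −1.03 to 1.03). Mag in G3 against G1 had an interval from −1.64 to 0.53, so at 12 libraries of this depth neither a fall to 0.322-fold nor a rise to 1.45-fold lies outside it.

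Sox10, the regulator, lies on chromosome 15 (79154908 to 79165240, minus strand). It had 30.9, 41.3 and 26.7 normalised reads in the G4 libraries, 24.9, 51.0 and 27.6 in G3, 30.4, 48.1 and 37.5 in G2, and 65.7, 60.2 and 31.2 in G1. The first 2 G1 libraries stood above all others, while the third G1 library lay among those of the other groups. Means were 33.0 ± 7.55 in G4, 34.5 ± 14.3 in G3, 38.7 ± 8.91 in G2 and 52.4 ± 18.6 in G1 (SD, n = 3 each), the widest span of group means in the set at 1.59-fold. In the authors' deposited table Sox10 was at −0.60 log2 in G3 against G1 (p = 0.116, adjusted p 1) and at −0.44 in G2 against G1 (p = 0.238, adjusted p 1). Their intervals ran from −1.34 to 0.15 and from −1.18 to 0.29. G3 against G1 was −1.0 without the second G3 library and −0.40 at the other end of the 6 such fits, and G2 against G1 ran from −0.70 to −0.25. G4 differed from G2 by −0.22 (−0.99 to 0.54) and from G3 by −0.07 (−0.84 to 0.70) in the authors' deposited table.

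S100b, on chromosome 10 (76253853 to 76261159, plus strand), had 17.1, 20.7 and 19.1 normalised reads in the G4 libraries, 12.9, 13.0 and 21.3 in G3, 14.4, 11.4 and 25.3 in G2, and 20.7, 30.6 and 17.2 in G1. One library in each of G3 and G2 lay above all 3 of G4, and the highest of the 12 was in G1. Means were 18.9 ± 1.81 in G4, 15.7 ± 4.85 in G3, 17.0 ± 7.35 in G2 and 22.8 ± 6.96 in G1 (SD, n = 3 each). The authors' deposited table has 0.17 log2 for G4 against G2, 0.29 for G4 against G3, −0.57 for G3 against G1 and −0.44 for G2 against G1. Without 1 library at a time these ran from 0.17 to 0.55 in G4 against G3, from −0.82 to −0.30 in G3 against G1 and from −0.82 to −0.17 in G2 against G1. The far ends of these ranges came without the third G3 library, in both of its comparisons, and without the third G2 library. All 4 intervals held 0, the narrowest running from −1.29 to 0.41 in G2 against G1.

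Read against all genes, the absence of calls among the members is near the background. The share of genes called at an adjusted p under 0.05 was 1.38% of 14539 in G4 against G2, 0.0394% of 17752 in G4 against G3, 0.210% of 28997 in G3 against G1 and 0.00345% of 28997 in G2 against G1. A count of 0 among 6 is read against these small shares. At an unadjusted p under 0.05, Mbp in G2 against G1 was the only 1 of the 24 pairs of gene and comparison to pass in the authors' deposited tables.

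**Figure D2:**
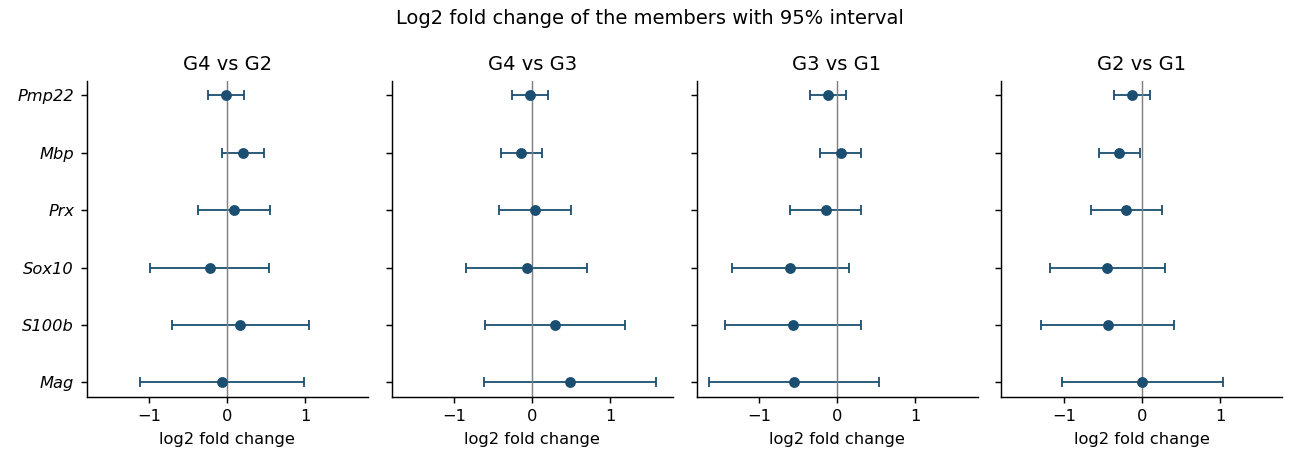
Log2 fold change (x axis) of each gene (rows, most reads at the top) in the 4 comparisons (panels), first-named group over second, with 95% intervals. In 23 of the 24 pairs the interval holds 0, the other being Mbp in G2 against G1, and the intervals widen from Pmp22 at the top to Mag at the bottom.

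G1 had the highest group mean for 4 of the 6 genes (Pmp22, Sox10, S100b and Prx), G2 for Mag and G3 for Mbp. Against G1, 5 of 6 members were negative in G3, with a median of −0.35 log2, and 5 of 6 in G2, with a median of −0.25. The median of the 15494 genes whose total reached 100 was 0.00 in both. These comparisons share the G1 libraries, so they are not separate observations. In G4 against G2 and in G4 against G3, 3 of 6 members were positive, with medians of 0.04 and 0.01. Members at −0.55 to −0.60 in G3 against G1 (Sox10, S100b and Mag) are those of fewest reads and of the widest standard errors.

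Marker sums of adipocytes and macrophages also had their highest group means in G1, as did the sum of 15 other myelin genes. Other sums did not: that of 9 Schwann lineage genes was highest in G3 (854, against 788 in G1). The repair Schwann sum was highest in G4 (149), and those of perineurial (770), motor axon (398) and satellite cell genes (888) in G2. Of 7 adipocyte genes, 0 were positive against G1 in G3 (median −0.27) or in G2 (median −0.77), and none of the 7 was called in either comparison. The summed normalised reads of the 6 of them that could be recovered ranged from 502 to 1119 in G4, from 423 to 1290 in G3, from 648 to 1014 in G2 and from 929 to 1914 in G1. The totals of the 7 ran from 276 to 53552, so none was at 0. All 5 macrophage genes were likewise negative in both (medians −0.10 and −0.18), with sums of 496 to 830 in G4, 734 to 840 in G3, 499 to 885 in G2 and 618 to 964 in G1. The 6 endothelial genes were negative in G2 against G1 (6 of 6, median −0.13), and 3 of 6 were in G3 against G1. Over the members, Pearson's r across libraries ran from −0.165 to 0.492 with adipocyte genes and from −0.327 to 0.527 with macrophage genes. Pmp22 was highest in both (permutation p = 0.104 and 0.0797, adjusted p = 0.493 each). Its r was 0.821 and 0.218 without the libraries farthest from its median. Sox10 gave Spearman's rho = 0.636 with adipocyte genes (permutation p = 0.03, adjusted p = 0.316). None passed after adjustment. No relation with endothelial genes was computed. The part of these cells in the member values was not tested further.

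The contrasts that join the groups gave no call among the members. The G4 against G2 difference minus the G3 against G1 difference was positive for 6 of 6 members, from 0.10 (Pmp22) to 0.73 (S100b), against 51.5% of all genes. Its standard errors ran from 0.17 to 0.77, the lowest p was 0.244 and the adjusted p was 0.9997 for each member, while 0.00645% of the 15494 genes were called. Averaged over both pairs, G4 and G3 against G2 and G1 gave a median of −0.13, and the lowest adjusted p was that of Sox10 (−0.41 ± 0.27 SE, adjusted p = 0.725), beside a share of 1.65% of genes called. G4 and G2 against G3 and G1 gave −0.22 ± 0.10 (SE) for Mbp, with an adjusted p of 0.9995, beside 0.0452% of genes called. These p-values come from normal tests on the deposited fold changes and their implied standard errors, with Benjamini-Hochberg adjustment over the 15494 genes.

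**Figure D3:**
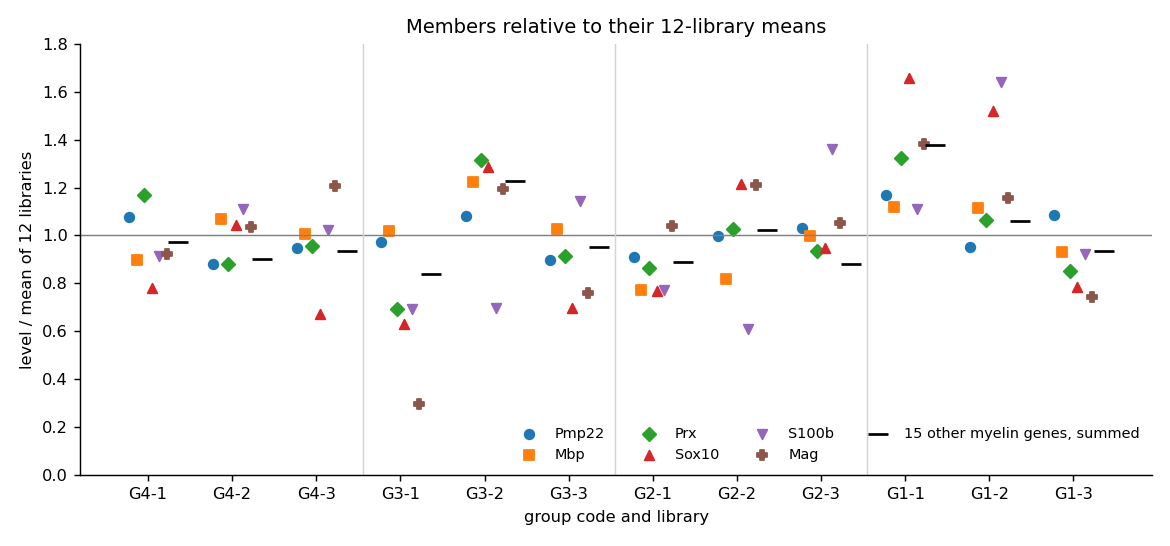
Level of each gene divided by its mean over the 12 libraries (y axis) in each library (x axis, group code and library number). Markers are the 6 genes and the black bar is the sum of 15 other myelin genes. In the first G3 library 1 of 6 genes lies above 1, and in the first G1 library all 6 do.

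Single libraries of 1 group stood apart in several members at once. In the first G3 library 1 of 6 members exceeded its 12-library mean: Mbp stood at 1.02 of its mean and Mag at 0.297, and Sox10, Mag and Prx had their lowest values there. In the second G3 library 5 of 6 exceeded the mean, S100b being at 0.696 of it. In the first G1 library all 6 did, by 1.11 to 1.66-fold, and 4 of them (Pmp22, Sox10, Mag and Prx) had their highest value there. The summed level of 15 other myelin genes was 0.841 of its mean in the first G3 library, 1.23 in the second G3 library and 1.38 in the first G1 library.

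For the scarcest gene the spread was of the size that counting alone gives. Mag averaged 11.8 reads per library, for which counting error alone is 29.2% of the mean, and its coefficient of variation over the 12 libraries was 29.0%. The corresponding figures were 23.2% and 30.01% for S100b, 15.6% and 34.7% for Sox10, 6.91% and 19.1% for Prx, 4.25% and 12.9% for Mbp, and 3.55% and 8.95% for Pmp22. By these figures the coefficient of variation of Mag was no larger than counting error, while that of the other 5 genes was larger. These differences were not tested. The fitted negative binomial model gave Mag the largest spread beyond counting of the 6 genes, 35.4%, and the G3 libraries of Mag alone had a coefficient of variation of 59.8%.

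Across the 12 libraries the members moved together only in part. Relations were computed on log2(normalised reads + 1) for 15 pairs of members and for the 6 members against 7 lists, 57 in all, with 100000 permutations each and Benjamini-Hochberg adjustment over the 57. No relation passed an adjusted p of 0.05. The largest among the members was Mag with Prx (Pearson's r = 0.740, permutation p = 0.00299, adjusted p = 0.0821, Spearman's rho = 0.741, p = 0.00767, adjusted p = 0.316). It was 0.498 without the 2 libraries farthest from the Mag median and 0.841 after subtraction of the group means. Sox10 with Prx gave r = 0.713 (permutation p = 0.00949, adjusted p = 0.115) and rho = 0.671 (p = 0.0208, adjusted p = 0.316), and Sox10 with Mag r = 0.642 (p = 0.0121, adjusted p = 0.115) and rho = 0.622 (p = 0.0349, adjusted p = 0.316). S100b had r between −0.123 and 0.402 with the other 5 members. Prx with the mean log2 level of the 15 other myelin genes gave r = 0.753 (permutation p = 0.00408, adjusted p = 0.0821) and rho = 0.538 (p = 0.0732, adjusted p = 0.379), and 0.393 without 2 libraries. With the same level Pmp22 gave r = 0.744 (rho = 0.699), Sox10 0.505, Mag 0.312 and Mbp 0.264. S100b went the other way, with r = −0.366 and rho = −0.594. With the level of the perineurial and endoneurial genes, Mag gave r = 0.676 (permutation p = 0.0106, adjusted p = 0.115). That r was 0.270 without 2 libraries and 0.933 after subtraction of the group means. Over the 6 members, r with these genes ran from −0.262 to 0.676. All values within a library share its size factor.

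The wider lists of nerve genes gave no call. Among 19 other myelin and myelinating Schwann cell genes, 15 had a total of at least 100, and 8 of these were positive in G4 against G2, 4 in G4 against G3, 6 in G3 against G1 and 4 for G2 against G1, with medians of 0.02, −0.13, −0.12 and −0.10. Set against G1, Cnp was at −0.23 log2 in G3 and −0.05 in G2, and Drp2 at −0.12 in G3 and −0.08 in G2, in the authors' deposited table. Of 13 genes of the Schwann lineage and of its non-myelinating and terminal forms, 9 reached that total, and set against G1 5 of them were positive for G3 (median 0.13) and 3 for G2 (median −0.09). For G3 and for G2 against G1, Erbb3 was at 0.19 and 0.13, the sodium channel gene Scn7a at 0.20 and −0.17 and Lgi4, which codes for a secreted Schwann cell protein, at −0.21 and −0.18 in the authors' deposited table or, where that omits a rise, rebuilt.

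**Figure D4:**
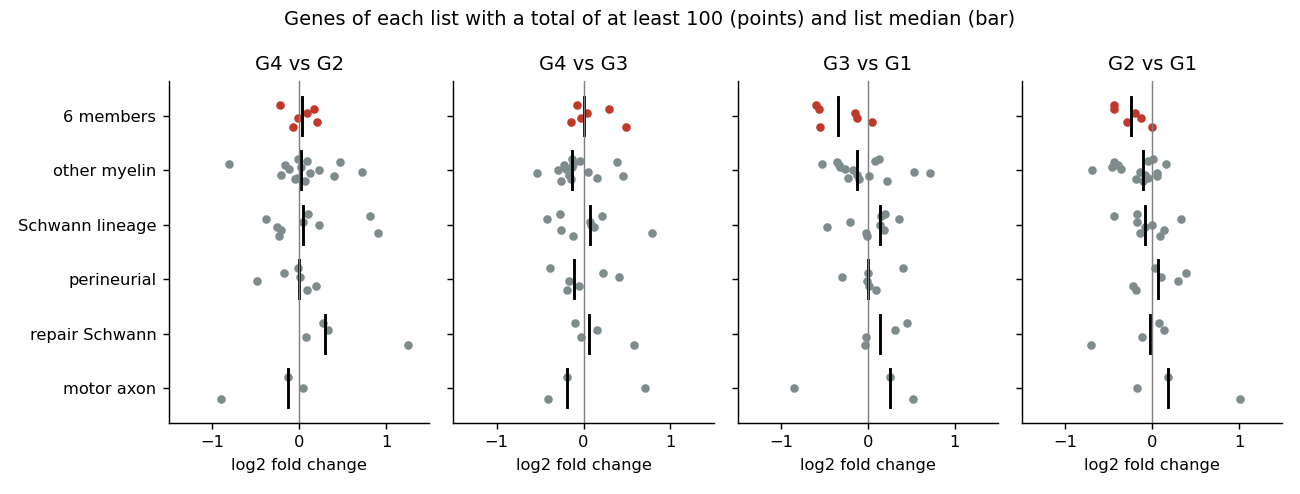
Log2 fold change (x axis) of each gene with a total of at least 100 (points) in 6 lists (rows) and 4 comparisons (panels), first-named group over second. Black bars are list medians, and the bar of the 6 members lies at −0.35 for G3 against G1 and at −0.25 for G2 against G1.

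Other nerve genes had no call either. For the 6 perineurial and endoneurial genes the medians ran from −0.11 in G4 against G3 to 0.07 in G2 against G1. Slc2a1, the glucose transporter of the perineurium, stood in the authors' deposited table at 0.41 log2 in G4 against G3, Itgb4 at −0.05 and Sox9 at 0.22. Of 7 genes of the repair Schwann cell, the form that follows nerve injury, 4 had a total of at least 100. In G4 against G2, 4 of these 4 were positive (median 0.30), and 4 of 7 without that filter. Bdnf, a nerve growth factor relative, stood there at 1.26 (p = 0.00467, adjusted p = 0.169) in the authors' deposited table. Jun stood at 0.33, Runx2 at 0.27 and Gdnf at 0.07. G4 against G3, G3 against G1 and G2 against G1 each had 2 of 4 positive (medians 0.06, 0.14 and −0.02). Among 11 motor axon genes, whose RNA is made largely in the spinal cord, 3 reached that total (Uchl1, Stmn2 and Prph), and 8 were below it. Stmn2, which codes for a tubulin-binding protein of growing axons, stood in the authors' deposited tables at 0.04 log2 in G4 against G2, 0.71 in G4 against G3 (adjusted p = 0.9997), −0.85 in G3 against G1 (adjusted p = 0.803) and −0.18 in G2 against G1. Uchl1 stood there at −0.13, −0.20 and 0.25 in the first 3 of these comparisons, and Prph at −0.90, −0.41 and 0.52, with rebuilt values of 0.18 and 1.01 in G2 against G1. The choline acetyltransferase gene Chat had a total of 1.95 normalised reads over the 12 libraries.

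Other cell types were listed for background. In the authors' deposited tables Fabp4, a fatty acid binding protein of adipocytes and capillary endothelium, was called in G4 against G2 (0.37, adjusted p = 0.0254), and Lum, a collagen-binding protein of fibroblasts, in G3 against G1 (0.58, adjusted p = 0.0128). No other gene of the adipocyte, endothelial, fibroblast, macrophage, satellite cell, smooth muscle and pericyte, muscle fibre or melanocyte lists was called in any of the 4 comparisons. List medians in G4 against G2 were 0.37 for 7 adipocyte genes, 0.21 for 6 endothelial genes, 0.04 for 6 fibroblast genes, −0.13 for 5 macrophage genes, −0.16 for 5 satellite cell genes, 0.17 for 5 smooth muscle and pericyte genes and −0.08 for 6 muscle fibre genes, beside 0.04 for the 6 members.

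The genes whose 4 group levels lay closest to the median profile of the members were Sar1b, Rad1, Lgi4, E130311K13Rik and St8sia5, chosen by the smallest distance over the 4 centred log2 levels among 15488 genes. Their distances ran from 0.0066 to 0.0233. The members' median profile was 0.00 in G4, −0.09 in G3, −0.05 in G2 and 0.14 in G1, and Lgi4 stood at 0.00, −0.08, −0.05 and 0.13. Within a wider distance of 0.1 of the profile lay 391 genes. The members themselves lay farther from it than these 5 genes, from 0.0751 (Prx) to 0.386 (Sox10).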

How the data were processed

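Stranded polyadenylated RNA libraries (KAPA kit, per the labels' protocols) were sequenced from 12 soleus muscles. Tools named in the submitters' processing notes are RSEM 1.2.15, Bowtie2 2.1.0 and edgeR, and builds are mm10 and GRCm38. Which tool made which value is not stated there. The 4 deposited tables hold, per the file headers, a total signal per gene (the authors' sum of normalised reads over the 12 libraries), p-values, adjusted p-values, a signed fold change (a score with no values between −1 and 1) and a log2 fold change. The deposited G2 against G1 table lists 15652 genes, all at a log2 of 0 or below.

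Log2 fold changes and p-values of the authors were taken as deposited. Standard errors came from them, and G2 against G1 values not listed were rebuilt from the other 3 tables, by adding the G3 over G1 and G4 over G3 values and subtracting that of G4 over G2. Size factors came from genes seen as 1 read in 1 library. Reads per library were then solved from the deposited values under a negative binomial model with a Wald test, which was chosen after the values were seen and tested on simulated data. They were recovered for 72 of 107 genes tried, including 6 of 6 members. Most genes that were not recovered had very many or very few reads. Tagln, with a total of 8013 normalised reads, was not recovered either, while Pmp22, with 9382, was. Counting errors given are for reads and cover counting error only. Intervals are 95% normal intervals. Tests across genes used a total of at least 100, about 8.33 reads per library, which all 6 members met, and an adjusted p under 0.05. Relations across libraries used permutations. Members and lists were chosen with earlier results of these data known. The text names all members, of each list any gene called, of the nerve lists the 3 with the highest totals (the same rule for the other cell types was not carried into the text), and the 5 genes of nearest profile, with further list genes named for context after their values were seen. A list gene that this rule would name is not reported here. Genes were placed on GENCODE M21 (GRCm38). Python 3.11.15, numpy 2.4.6, scipy 1.17.1, pandas 2.3.3 and patsy 1.0.2 were used. The labels name separate animals with no pairing.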

Additional observations from a re-analysis of the deposited data

How the results depend on the processing

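The number of members called stayed at 0 in the 4 comparisons, the interaction and both averaged contrasts with all genes adjusted together, with genes of a total of at least 100, with a 1.5-fold minimum, after spline terms for GC content, transcript length and total were taken out, and with rebuilt values for all genes in G2 against G1. An unadjusted p gave 1 call (Mbp) in G2 against G1 and 1 (Mbp) in the average of G4 and G2 over G3 and G1. Leaving out 1 library at a time kept the sign of the log2 fold change in 125 of 144 fits and turned it in 19. Where the sign turned in some fit, values ran from −0.046 to 0.095 for Mbp in G3 against G1, from −0.10 to 0.048 for Pmp22 in G4 against G2 and from −0.11 to 0.049 in G4 against G3. They ran from −0.27 to 0.34 for Sox10 in G4 against G3, from −0.055 to 0.55 for S100b in G4 against G2, and for Mag from −0.17 to 0.024 in G4 against G2 and from −0.21 to 0.20 in G2 against G1. For Prx they ran from −0.038 to 0.17 in G4 against G2, from −0.16 to 0.32 in G4 against G3 and from −0.43 to 0.051 in G3 against G1. With the sign kept in 6 of 6 fits, values moved by over 1.5 times for Mbp from 0.13 to 0.32 in G4 against G2 and from −0.20 to −0.046 in G4 against G3, for Pmp22 from −0.20 to −0.050 in G3 against G1 and from −0.21 to −0.058 in G2 against G1, for Sox10 from −0.42 to −0.034 in G4 against G2 and for Prx from −0.34 to −0.026 in G2 against G1. Sox10 also moved that far, from −1.0 to −0.40 in G3 against G1 and from −0.70 to −0.25 in G2 against G1. S100b did so from 0.17 to 0.55 in G4 against G3. Against G1, S100b ran from −0.82 to −0.30 in G3 and from −0.82 to −0.17 in G2. Mag ran from 0.08 to 1.06 in G4 against G3 and from −1.13 to −0.14 in G3 against G1. Their signs held in 6 of 6 fits as well. The other alternatives turned 0 of 66 log2 values. Group levels moved by less than 1 SD in 48 of 48 cases with fitted or total-based means. Levels per kilobase of Pmp22, Mbp and Sox10 moved by over 1 SD with the median transcript length, an alternative added after the values were seen. List calls were the same in 52 of 52 counts without the filter. No paired analysis was possible because the labels and columns carry no replicate numbers shared between groups. Depth limits Mag, whose coefficient of variation over the 12 libraries was no larger than counting error, a difference that was not tested. The intervals of Mag, S100b and Sox10 leave changes of 1.5-fold possible in at least 1 direction in every comparison.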
